A study of Mus musculus with 4 samples.

Results

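The cytochrome P450 genes of families 1 to 4 were described across hepatocyte clusters, other cell classes and libraries of a single-cell RNA dataset from mouse livers with induced hepatocellular carcinoma. Members were all genes whose symbol starts with Cyp, a family number from 1 to 4 and a letter, and which held at least 20 UMIs (unique molecular identifiers, each counting 1 captured transcript) in the whole matrix. This rule took 58 of 31053 genes. It matched 82 symbols, of which 24 held too few UMIs, 10 of them none. The members just inside the limit were Cyp2b13 with 29 UMIs, Cyp3a41b with 32 and Cyp2s1 with 37, and those just outside were Cyp2d11 with 18, Cyp2ab1 with 17 and Cyp4f39 with 14.

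P450 enzymes of these families are haem proteins of the endoplasmic reticulum that take electrons from P450 reductase (encoded by Por) and insert oxygen into drugs, solvents, steroids, bile acids and fatty acids. In the liver most of them are made by hepatocytes, many more strongly around the central vein than around the portal tract, and several are set by receptors such as Ahr, the constitutive androstane receptor, the pregnane X receptor and Ppara. Some mouse members are known for a male or female pattern that growth hormone imposes.

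The study holds 4 samples, each a single dissection with no replicate. HCC-NL is normal liver at week 0, HCC-ES is tumor at week 4, HCC-MS is tumor at week 8, and HCC-LS is tumor labelled week 10, for which the series text gives week 12. Tumors came from a gene-induced model, and the labels name neither the inducing gene nor the strain, sex or age. The 4 samples are joined in 1 matrix whose barcodes end in a suffix from 1 to 4, and no source used here pairs a suffix with a sample, so each suffix is called a library and no library was assigned to a week. Since the pool counts as 1 sample, no test between conditions was made, and values are given as CPM, the UMIs of a gene summed over cells and scaled to a total of 1000000, with exact 95% Poisson intervals, or as ratios with exact 95% intervals. All intervals cover counting error only.

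Libraries 1 to 4 held 9222, 9027, 10316 and 9507 barcodes with a median of 1304, 3131, 1318 and 2484 UMIs. After filtering, 34783 cells fell into 25 clusters, and 9 clusters with 19833 cells were named hepatocyte-like from 10 markers such as Alb, Apoa1 and Ttr. Libraries 1 and 3 stood apart from libraries 2 and 4: their hepatocyte-like cells had medians of 1498 and 1338.5 UMIs against 4888.5 and 3384, and their 10 most abundant genes took 20.4% and 22.3% of UMIs against 8.76% and 10.4%. Median mitochondrial shares in hepatocyte-like cells were 0, 0.908, 2.52 and 0.691% in libraries 1 to 4. Among the analysed cells 585 barcode sequences occurred in more than 1 library. Xist, which marks female cells, had 0, 2, 0 and 0 UMIs in hepatocyte-like cells of libraries 1 to 4, and the Y-linked gene Ddx3y stood at 30.4, 29.3, 22.7 and 35.3 CPM. The part of these differences in the results below was not tested.

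A single gene made up most of the P450 transcripts. Cyp2e1 (ENSMUSG00000025479), which oxidises ethanol and small solvents, held 307572 of the 530287 UMIs of all members, or 58%. Its level in hepatocyte-like cells was 2931 CPM (2920 to 2943). Next came Cyp3a11, a main drug-metabolising enzyme of mouse liver, at 243 CPM (240 to 246), Cyp2a5, the coumarin hydroxylase, at 197 CPM (194 to 200), and Cyp2c70, which makes muricholic bile acids, at 194 CPM (191 to 197). A second tier between 83 and 114 CPM held Cyp2c29, Cyp3a25, Cyp1a2, Cyp2d9 and Cyp2c68. CPM here are not divided by transcript length, and the 3′ kit counts transcript ends.

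Family 2 had 33 members with 441552 UMIs, family 3 had 8 with 51619, family 4 had 14 with 26357, and family 1 had 3 with 10759. Within the members, 45 had at least 100 UMIs in hepatocyte-like cells, and the lowest level among all 58 was that of Cyp2s1, with 4 UMIs there. Several members are near-identical copies (Cyp2a4 and Cyp2a5, Cyp3a41a and Cyp3a41b, Cyp4a12a and Cyp4a12b, and many of the 13 Cyp2c and 6 Cyp2d genes). No label or header says how reads shared between copies were counted, so the split between such copies is uncertain.

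The start regions of 46 of the 58 members were found in RefSeq's annotation of GRCm38.p6, as 51 windows from 250 bases before to 50 bases after a start site. The window of Cyp2e1, chr7:140763569-140763868 on the + strand, is shown because this gene dominated the family. Cyp1a2 (ENSMUSG00000032310; chr9:57683606-57683905, - strand) and Cyp2c29 (ENSMUSG00000003053; chr19:39286835-39287134, + strand) are shown as members that rose with the pericentral score, and Cyp2f2 (ENSMUSG00000052974; chr7:27119705-27120004, + strand) as the member that fell most with it. Cyp4b1 (ENSMUSG00000028713; chr4:115647672-115647971, - strand) and Cyp1b1 (ENSMUSG00000024087; chr17:79715012-79715311, - strand) are shown as members with most of their UMIs in endothelial-like cells. By CPM the highest class of Cyp1b1 was stellate cells or fibroblasts. Each sequence reads 5′ to 3′ on the gene's strand, and capitals mark TATAAA (the TATA box), AGGTCA (a nuclear receptor element) or GCGTG (the core bound by the Ahr complex) on either strand.
Cyp2e1: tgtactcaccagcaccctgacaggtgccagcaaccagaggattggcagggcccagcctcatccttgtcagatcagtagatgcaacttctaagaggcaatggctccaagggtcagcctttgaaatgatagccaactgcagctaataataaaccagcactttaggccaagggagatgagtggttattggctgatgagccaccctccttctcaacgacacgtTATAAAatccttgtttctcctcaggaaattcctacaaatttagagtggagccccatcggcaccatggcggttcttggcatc
Cyp1a2: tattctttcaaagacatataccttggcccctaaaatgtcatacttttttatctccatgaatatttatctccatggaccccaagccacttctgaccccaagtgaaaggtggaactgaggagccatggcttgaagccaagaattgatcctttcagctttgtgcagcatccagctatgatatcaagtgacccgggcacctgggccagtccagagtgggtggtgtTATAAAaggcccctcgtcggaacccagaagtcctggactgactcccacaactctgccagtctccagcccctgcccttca
Cyp2c29: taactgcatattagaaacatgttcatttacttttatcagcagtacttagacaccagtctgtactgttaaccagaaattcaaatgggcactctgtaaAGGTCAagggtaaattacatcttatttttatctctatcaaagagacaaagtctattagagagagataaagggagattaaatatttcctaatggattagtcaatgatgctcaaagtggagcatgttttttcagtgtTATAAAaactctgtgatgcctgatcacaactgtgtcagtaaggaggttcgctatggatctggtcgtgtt
Cyp2f2: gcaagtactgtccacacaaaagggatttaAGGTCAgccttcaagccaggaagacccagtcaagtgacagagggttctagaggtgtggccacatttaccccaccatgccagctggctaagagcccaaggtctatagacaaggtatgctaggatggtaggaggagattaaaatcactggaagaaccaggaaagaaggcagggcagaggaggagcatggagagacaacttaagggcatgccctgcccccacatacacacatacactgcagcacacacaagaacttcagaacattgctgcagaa
Cyp4b1: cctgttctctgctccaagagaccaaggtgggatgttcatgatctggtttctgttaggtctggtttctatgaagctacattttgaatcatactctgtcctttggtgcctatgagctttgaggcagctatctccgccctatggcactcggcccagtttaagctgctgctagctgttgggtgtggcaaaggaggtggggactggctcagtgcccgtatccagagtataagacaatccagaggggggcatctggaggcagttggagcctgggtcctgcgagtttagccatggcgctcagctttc
Cyp1b1: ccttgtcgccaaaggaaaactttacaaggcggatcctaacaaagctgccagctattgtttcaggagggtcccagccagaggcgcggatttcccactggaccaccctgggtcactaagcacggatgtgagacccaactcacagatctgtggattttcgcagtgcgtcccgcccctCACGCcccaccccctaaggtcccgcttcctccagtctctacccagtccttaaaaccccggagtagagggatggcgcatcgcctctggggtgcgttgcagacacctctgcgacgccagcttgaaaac

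TATAAA began 31 bases before the start of Cyp2e1 (position -31), at -29 in Cyp1a2 and at -19 in Cyp2c29. Cyp2c29 also held AGGTCA at -154, and Cyp2f2 held it at -221. The reverse of GCGTG stood at -76 in Cyp1b1, an Ahr target, and none of the 3 motifs was found in the window of Cyp4b1. Of the 29 windows (27 genes) of members with at least 100 UMIs whose highest class was hepatocyte-like, 18 held TATAAA, 11 AGGTCA and 2 GCGTG. Of the 13 windows (10 genes) of members highest in another class, 3 held TATAAA, 1 AGGTCA and 3 GCGTG. Among all 32851 windows of the same length, 13.6% held TATAAA, 16.3% AGGTCA and 32.4% GCGTG. A further pair of motifs, GTTAAT (part of the site of the hepatocyte factor HNF1) and GGAAG (the ETS core), was in 5 and 17 of the 29 hepatocyte windows, 3 and 11 of the 13 others, and 7.1% and 71.4% of all windows. A match describes letters in these windows and is not evidence of binding.

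The 9 hepatocyte-like clusters were made without the P450 genes and are called by a leading gene. Clusters Serpina1e (3027 cells) and Mup15 (735 cells) came mostly from library 1, Saa1 (1899 cells), Sds (3124 cells) and Lars2 (1001 cells) mostly from library 3, and Afp (1970 cells), Hsd17b6 (2270 cells), Oat (3447 cells) and Lhpp (2360 cells) mostly from libraries 2 and 4. Differences between clusters and between libraries therefore largely cannot be told apart in the pooled values. Afp marks the fetal liver program, Saa1 the acute phase response, Sds periportal and Oat pericentral cells. Immunoglobulin transcripts (Igkv9-124, Ighv1-54) also led the Lhpp cluster.

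Cyp2e1 varied 23.7-fold between clusters, from 243 CPM in the Sds cluster to 5767 CPM in the Lhpp cluster. The Oat cluster followed at 4838 CPM, and the Hsd17b6 and Afp clusters at 2770 and 2729 CPM. Cyp2e1 stood at 1657 CPM in the Lars2 cluster and 1271 CPM in the Mup15 cluster. It was low in the Serpina1e cluster at 443 CPM and in the Saa1 cluster at 330 CPM.

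Most other members did not follow Cyp2e1. Among the 45 members with at least 100 UMIs in hepatocyte-like cells, 20 were highest in the Afp cluster, 8 in the Saa1 cluster, 6 in the Lars2 cluster, 4 each in the Lhpp and Mup15 clusters, 2 in the Hsd17b6 cluster and 1 in the Serpina1e cluster, and none in the Oat or Sds cluster. The matching shares of all genes were not counted, so these numbers are not read as particular to P450 genes. Of 11003 genes 24% were at least 2-fold higher in the Afp cluster than in other hepatocyte-like cells. Cyp3a11 was at 544 CPM in the Afp cluster and 89.9 CPM in the Oat cluster. Cyp4a14, a fatty acid hydroxylase induced by Ppara, was at 117 CPM in the Afp cluster and no higher than 32.6 CPM in any other. The Afp cluster also had the deepest cells of the named clusters (median 6220 UMIs) and a median mitochondrial share of 4.22%, and its Malat1 and Neat1, nuclear RNAs, summed to 1421 CPM against 60.2 to 645 CPM in the other 8 clusters. The part of these features in its P450 levels was not tested.

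The Saa1 cluster was highest for Cyp2f2, which activates naphthalene and styrene, at 125 CPM against 2.65 CPM in the Afp cluster. It was also highest for Cyp2a12, a bile acid hydroxylase, at 55.3 CPM. Cyp2j5, an arachidonic acid epoxygenase, reached 91.2 CPM there and 17.2 CPM in the Oat cluster. In the Mup15 cluster Cyp2c50 reached 281 CPM, and in the Hsd17b6 cluster it was at 16.6 CPM. Cyp2d40 stood at 130 and 128 CPM in the Serpina1e and Mup15 clusters and at 9.95 CPM in the Oat cluster. Cyp2c29, which makes arachidonic acid epoxides, and Cyp1a2, which oxidises caffeine and arylamines, were both highest in the Lars2 cluster, at 337 and 234 CPM. That cluster had the shallowest cells of the 9 (median 891 UMIs), Lars2, Gm42418 and AY036118 were among its leading genes, and its Malat1 and Neat1 summed to 645 CPM; the part of these features in its levels was not tested. Cyp2c23 ranged only 2.0-fold, from 21.3 CPM in the Saa1 to 10.6 CPM in the Sds cluster.

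**Figure D1:**
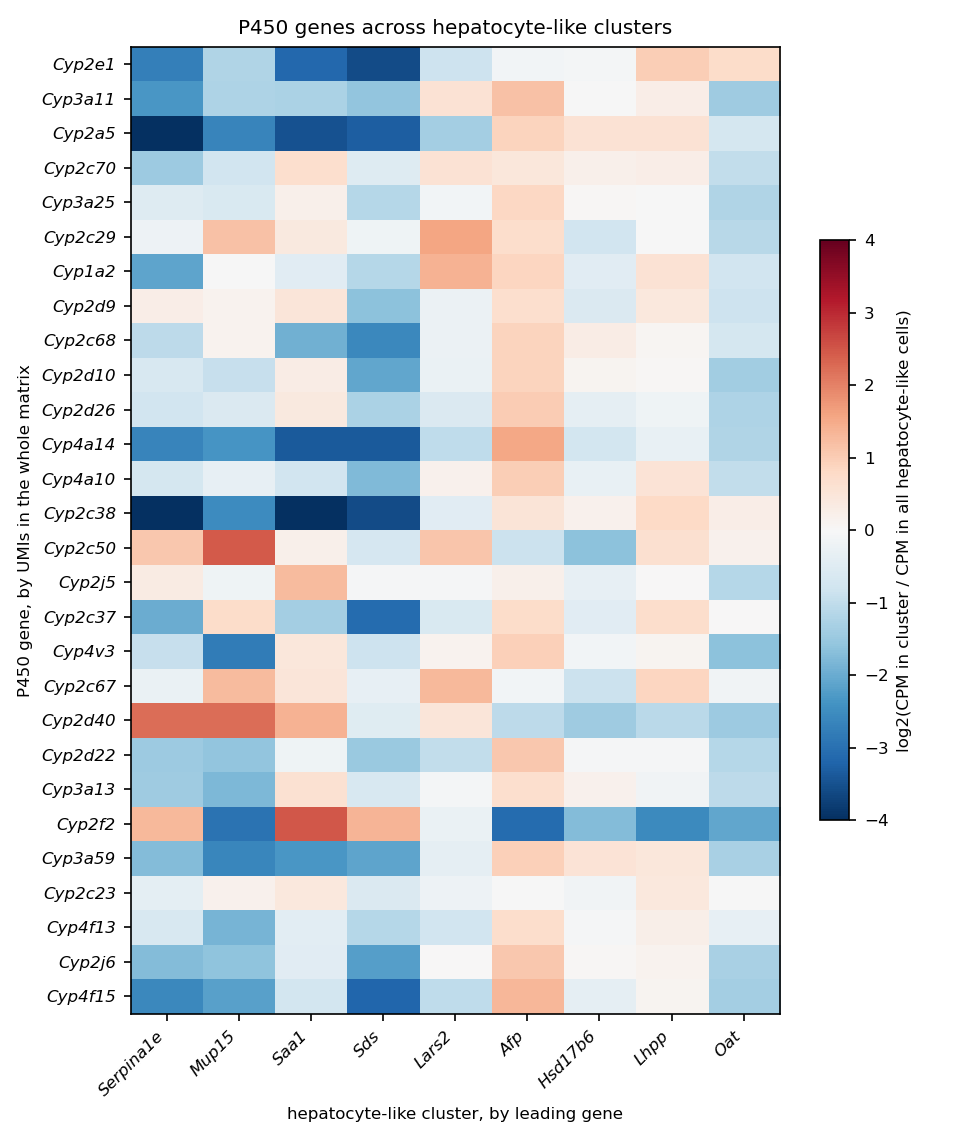
Heat map of 28 members (rows; those of the 30 most abundant with at least 100 UMIs in hepatocyte-like cells) across 9 hepatocyte-like clusters (columns); colour gives the log2 ratio of the CPM in a cluster to the CPM in all hepatocyte-like cells, limited to the range shown on the scale, with counts under 3 UMIs set to 3. The Afp column is red for most rows while the Oat column is red mainly for Cyp2e1, and Cyp2f2 is blue in the Afp, Oat, Lhpp, Hsd17b6 and Mup15 columns.

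Against all other hepatocyte-like cells, a member or gene was called where it had at least 100 UMIs over both sides and differed at least 2-fold. In the Afp cluster 20 of 45 members were called higher and 7 lower, against 24% and 5.83% of 11003 genes; the median log2 ratio was 0.98 for members and 0.26 for all genes. In the Oat cluster 2 members were higher (Cyp2e1 among them, 2.11-fold) and 26 lower, against 1.67% and 21.7% of genes, with a median log2 ratio of -1.28 for members and -0.16 for all genes. In the Sds cluster 4 were higher and 27 lower, against 3.85% and 33.5% of genes. In the Serpina1e cluster 7 were higher and 23 lower, against 4.24% and 37.5%. The Saa1 cluster had 7 higher and 16 lower, against 3.36% and 39.8%. The Lars2 cluster had 9 higher and 5 lower, against 2.54% and 13.8%. In the Mup15 cluster the counts were 9 and 16, against 4.44% and 24.1%. In the Hsd17b6 cluster they were 1 and 10, against 6.02% and 4.98%. In the Lhpp cluster they were 3 and 7, against 0.464% and 5.64%.

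These counts rest on which libraries are compared. Without library 1 the Serpina1e cluster is 111 cells of library 3, with 4 members higher and 7 lower, and the Mup15 cluster is 186 cells of library 3, with 7 higher and 9 lower. Without library 2 the Lars2 cluster had 1 member lower, the Mup15 cluster 5 higher, the Serpina1e cluster 3 higher, the Lhpp cluster 6 higher, the Afp cluster 3 lower, and the Sds and Hsd17b6 clusters none higher. Without library 4 the Sds cluster had none higher and the Lars2 cluster 3 lower. The Oat cluster had 1 member higher without library 1 or without library 3. Shares of all genes were not counted with a library left out. Whether these counts moved more than those of all genes was therefore not tested.

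Pairs of clusters from the same libraries were also compared. The Afp and Oat clusters were summed over libraries 2 and 4, which they hold in unequal shares, and the values within each library are given beside the sum. In the sum, 21 of 36 members were at least 2-fold higher in the Afp than in the Oat cluster and 3 were lower, against 29.1% and 7.91% of 9963 genes, and the median log2 ratio was 1.45 for members and 0.26 for all genes. Cyp4a14 stood at 118 CPM against 17.8 CPM, a ratio of 6.59 (5.91 to 7.38). Cyp3a11 stood at 513 CPM against 90.7 CPM, a ratio of 5.66 (5.39 to 5.95). The fatty acid hydroxylase Cyp4v3 was 5.98-fold higher (5.07 to 7.08), Cyp4f15 6.24-fold, Cyp2d10 4.78-fold, Cyp2d26 4.75-fold and Cyp3a25 4.07-fold. Within library 2 the ratios were 3.69 for Cyp4a14, 4.84 for Cyp3a11, 5.00 for Cyp4v3, 4.26 for Cyp2d10 and 3.06 for Cyp3a25. Within library 4 they were 10.8, 7.77, 7.54, 6.30 and 5.31. All 5 thus passed 2-fold in both libraries, with the larger ratio in library 4.

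Cyp2e1 went the other way, at 2739 CPM in the Afp cluster and 4934 CPM in the Oat cluster, a ratio of 0.555 (0.549 to 0.561) that did not reach 2-fold. The 3 members called lower were Cyp2c39, which acts on retinoic acid, at 0.285 (0.216 to 0.371), Cyp2c50 at 0.466 (0.419 to 0.516) and Cyp2f2 at 0.480 (0.336 to 0.677). In libraries 2 and 4 alone the ratios were 0.512 and 0.788 for Cyp2e1, 0.230 and 0.326 for Cyp2c39, and 0.435 and 0.818 for Cyp2c50, which therefore was not called in library 4. The ratio of Cyp2f2 rests on low counts, under the minimum in each library alone, and with cells thinned to 1000 UMIs its log2 value was 0.0072. Within library 2 alone 17 of 31 members were higher and 2 lower (27% and 8.54% of genes), and within library 4 alone 24 of 34 were higher and 1 lower (21.4% and 11.5% of genes).

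Against the same Oat cells, the Hsd17b6 cluster, whose highest list score was that of cell cycle genes, had 12 of 36 members higher and 3 lower, against 16.1% and 1.47% of 9382 genes. The largest ratio was that of Cyp3a41a, known as a female-predominant gene, at 9.96 CPM against 1.10 CPM, or 9.04-fold (5.81 to 14.7). Within library 2, which held most of its UMIs there, it was at 11.6 and 3.23 CPM, or 3.59-fold (2.21 to 6.15), and in library 4 it had 16 and 4 UMIs, too few for a call. Cyp3a11 was 2.72-fold higher (2.57 to 2.87) and Cyp2a5 2.45-fold (2.33 to 2.57). Cyp2c50, Cyp2c54 and Cyp2c39 were lower, at ratios of 0.287, 0.368 and 0.443. Within libraries 2 and 4 alone the ratios were 2.83 and 2.78 for Cyp3a11, 1.75 and 2.36 for Cyp2a5, 0.336 and 0.557 for Cyp2c50, and 0.380 and 0.422 for Cyp2c39, and Cyp2c54 was at 0.821 in library 4 and under the minimum in library 2. Within library 2, 11 of 32 members were higher and 2 lower (12% and 0.85% of genes), and within library 4, 11 of 32 were higher and 1 lower (10.4% and 1.45% of genes). The direction for Cyp2a5 turned when members were kept among the clustering genes (log2 -0.12), and that for Cyp2c54 turned under a stricter cell filter (log2 0.34). Both settings clustered the cells anew, so the cells compared can differ from those above. With thinned cells 9 members were called, all cells giving 15.

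In library 1, 10 of 20 members were higher in the Mup15 than in the Serpina1e cluster and 1 was lower, against 1.59% and 2.11% of 4400 genes. Cyp2e1 stood at 1354 CPM against 436 CPM, a ratio of 3.10 (2.91 to 3.31). Cyp2c37 was 7.37-fold higher (5.07 to 10.8), Cyp1a2 4.32-fold (3.24 to 5.77), and Cyp2c50 2.74-fold (2.39 to 3.14). Cyp2f2 was the member that fell, from 55.3 CPM in the Serpina1e cluster to 2.69 CPM (3 UMIs) in the Mup15 cluster, a ratio of 0.0487 (0.00998 to 0.144). All 5 tested genes of the pericentral list were higher and all 9 tested genes of the periportal list were lower in the Mup15 cluster. These 2 lists were not held out of the clustering, so their difference is not independent of how the clusters were made. With thinned cells 5 members were called.

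In library 3, 17 of 28 members were higher in the Saa1 than in the Sds cluster and none was lower, against 6.89% and 0.611% of 6056 genes. The Cyp2d genes led: Cyp2d10 at 5.13-fold (4.07 to 6.52), Cyp2d9, a male-biased testosterone hydroxylase, at 4.24-fold (3.57 to 5.08), Cyp2d40 at 3.78-fold (3.06 to 4.71) and Cyp2d26 at 3.14-fold (2.57 to 3.85). Cyp4f14, which acts on leukotriene B4, was 2.97-fold higher (2.02 to 4.49). Cyp2e1 was at 322 and 242 CPM, a ratio of 1.33 (1.24 to 1.42) under the limit. The Saa1 cells were deeper, with a median of 2608 UMIs against 1076, and their hepatocyte markers summed to 51241 CPM against 14965 CPM. The part of this in the P450 difference was not tested, and with thinned cells 8 members were called.

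Some cells of library 3 lay in clusters made mostly of libraries 2 and 4, which lets a cluster be read across libraries. In the Oat cluster Cyp2e1 was at 4024, 800 and 5290 CPM in libraries 2, 3 and 4, with 92 cells in library 3. In the Hsd17b6 cluster it was at 2531, 496 and 3823 CPM (79 cells in library 3), and in the Lhpp cluster at 4029, 1297 and 6329 CPM (52 cells in library 3). Library 3 was lowest in these 3 clusters. In the Afp cluster Cyp2e1 was at 2061, 2452 and 4166 CPM (95 cells in library 3), so that library 3 lay between the other two. There Cyp4a12a, a male-predominant fatty acid hydroxylase, was at 47.0 CPM in library 3 against 0.0774 CPM (1 UMI) in library 2 and 1.30 CPM in library 4.

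Pericentral against periportal expression was read from a score free of P450 genes, the mean log-normalised level of 10 pericentral genes (Glul and Oat among them) minus that of 10 periportal genes (Ass1 and Sds among them). Whether the score gives a place in the lobule, in tumor cells above all, was not tested. Hepatocyte-like cells were ranked within each library and cut into 3 equal ranges, and the upper range, called pericentral, was set against the lower range, called periportal. The names refer to the score alone. The lower cut of library 4, at 0.620, lay above the upper cuts of libraries 1 and 3, at -0.263 and -0.0657. The ranges are cuts of a continuous score and not cell types: 712, 1251, 1088 and 2195 cells of libraries 1 to 4 lay within 0.1 of a cut. In the 4 libraries summed, 17 of 42 members were at least 2-fold higher in the upper range and 4 lower, against 1.97% and 3.51% of 10474 genes, and the median log2 ratio was 0.72 for members and -0.03 for all genes. With cells thinned to 1000 UMIs, 10 were higher and 2 lower, and without library 3 the number lower was 2.

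Cyp2c29 had the largest ratio, 244 CPM in the upper and 29.9 CPM in the lower range, or 8.17-fold (7.65 to 8.75). Its ratios in libraries 1 to 4 were 12.1, 10.1, 10.7 and 5.43. Cyp1a2 was at 180 CPM and 34.9 CPM, or 5.16-fold (4.84 to 5.51), with 10.2, 4.33, 13.8 and 3.42 in libraries 1 to 4. Both were higher in the upper range of every library. The Cyp2c genes Cyp2c50 (4.73-fold), Cyp2c37 (4.67-fold), Cyp2c67 (4.54-fold), Cyp2c54 (3.98-fold), Cyp2c39 (3.44-fold), Cyp2c55 (3.25-fold) and Cyp2c40 (2.0-fold) were also called, and Cyp2c50 and Cyp2c37 passed 2-fold in all 4 libraries, as Cyp2c29 and Cyp1a2 did.

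Of the 14 members of family 4, which includes many fatty acid hydroxylases, 6 were called higher in the upper range and none lower: Cyp4a14 4.76-fold (4.34 to 5.23), Cyp4a10 4.41-fold (4.06 to 4.80), Cyp4a32 3.59-fold, Cyp4a31 3.41-fold, Cyp4f15 2.39-fold and Cyp4f14 2.14-fold. Of the others Cyp4a12b, at 1.64-fold, Cyp4f13, at 1.47-fold, Cyp4v3, at 27.3 and 25.8 CPM, and Cyp4a12a, at 8.79 and 9.01 CPM, were not called, and Cyp4b1, Cyp4f16, Cyp4f17 and Cyp4f18 were under the minimum. Cyp4a10 was uneven, with ratios of 0.949, 5.14, 2.68 and 5.80 in libraries 1 to 4. Cyp4a14 had ratios of 4.71, 9.02 and 4.55 in libraries 2 to 4, and in library 1 it held too few UMIs to be called, at 18.9 and 11.0 CPM. Of the 10 genes outside the family known to be induced by Ppara, such as Cpt1a and Pdk4, none differed 2-fold between the ranges. Only 1.97% of all genes were higher and 3.51% lower there, so a list of this size would hold few calls. A part of Ppara in the Cyp4a ratios was not tested.

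Cyp2e1 was 2.64-fold higher (2.61 to 2.67) in the upper range of the sum, at 4402 against 1668 CPM. In library 1 it was at 1279 CPM in the upper and 83.5 CPM in the lower range, and in library 3 at 1448 and 99.6 CPM. In library 2 it was at 4721 and 1384 CPM, and in library 4 at 6116 and 3633 CPM. The ratios were thus 15.3 and 14.5 in libraries 1 and 3, 3.41 in library 2 and 1.68 in library 4, and the lower range of library 4 lay above the upper range of libraries 1 and 3. Cyp2a5 likewise had its largest ratio in library 3, at 13.9 against 2.5 and 3.14 in libraries 2 and 4. Cyp3a11 was 4.10-fold and 10.4-fold higher in the upper range of libraries 1 and 3, and 1.31-fold and 1.68-fold in libraries 2 and 4.

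Cyp2f2 fell most with the score, from 40.6 CPM in the lower to 5.56 CPM in the upper range, a ratio of 0.137 (0.115 to 0.163). In library 1 it was at 107 CPM in the lower and 6.79 CPM in the upper range, and in library 3 at 130 and 8.86 CPM. In library 2 the order was the other way, at 3.86 and 7.56 CPM, and in library 4 it was at 4.48 and 1.96 CPM with too few UMIs for a call. The other members called lower were Cyp2u1 at 0.273 (0.162 to 0.440), Cyp2a12 at 0.333 (0.277 to 0.398) and Cyp3a41a at 0.452 (0.303 to 0.660). These calls come from the sum. Cyp2a12 had enough UMIs in 2 single libraries, at log2 ratios of -2.19 and -0.99, and was called in 1 of them. Cyp3a41a had enough in 1, where it was not called (log2 -0.79), and Cyp2u1 was under the minimum in each. Within single libraries 9, 13, 14 and 14 of 20, 34, 30 and 34 members were higher in the upper range, against 2.93%, 2.9%, 13.9% and 1.82% of genes in libraries 1 to 4, and 1, 0, 2 and 0 were lower, against 2.26%, 7.73%, 4.05% and 1.98%. Median UMIs were 1665 and 1336 in the lower and upper range of library 1, 5824.5 and 4707 in library 2, 2148 and 1004 in library 3, and 3143.5 and 3553.5 in library 4.

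**Figure D2:**
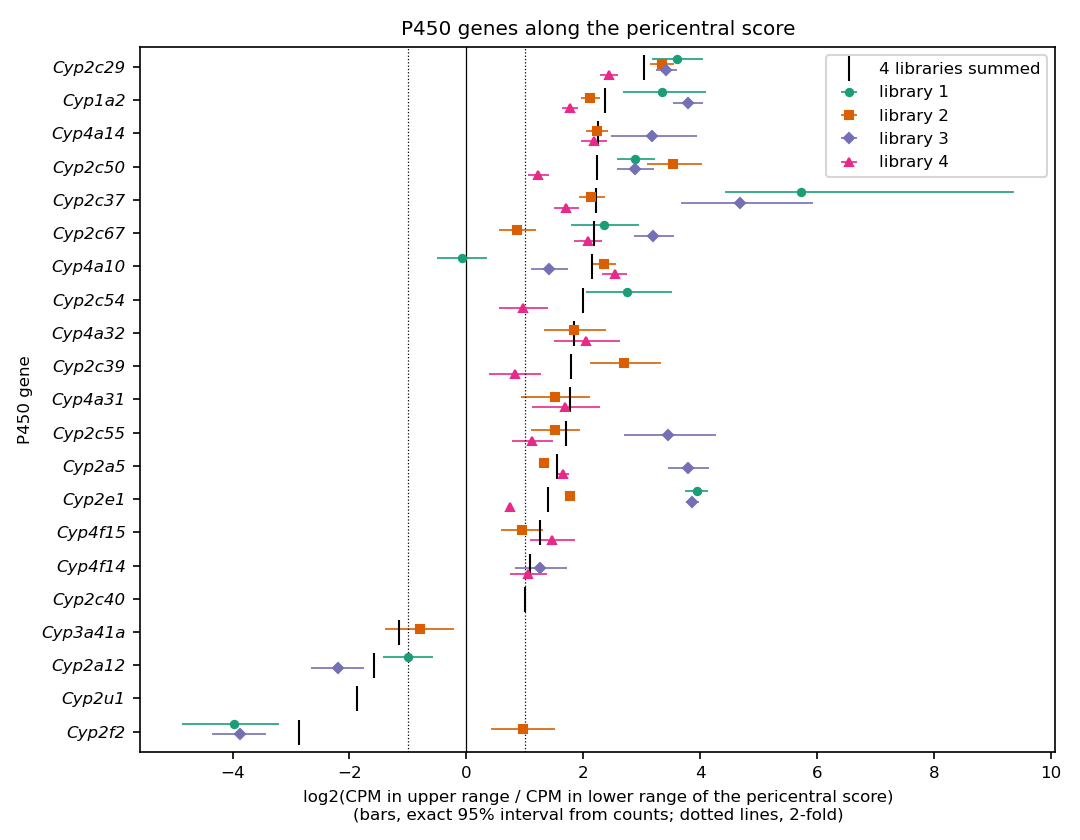
Log2 ratio of the CPM in the upper to that in the lower range of the pericentral score for the 21 members called over the 4 libraries summed (black bars); coloured points are single libraries where the member had at least 100 UMIs over both ranges, with exact 95% intervals from counts, and dotted lines mark 2-fold. For Cyp2e1 the points of libraries 1 and 3 lie far to the right of those of libraries 2 and 4, and for Cyp2f2 the points of libraries 1 and 3 lie far to the left while that of library 2 lies on the right of 0.

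Between libraries, hepatocyte-like cells differed in both the amount and the make-up of P450 transcripts. All members summed to 1994, 4519, 2176 and 6987 CPM in libraries 1 to 4. Without Cyp2e1 they summed to 1364, 1842, 1621 and 1929 CPM, so that Cyp2e1 carried most of the difference. Cyp2e1 itself was at 630 CPM (612 to 649) in library 1, 2677 CPM (2659 to 2695) in library 2, 555 CPM (544 to 567) in library 3 and 5059 CPM (5033 to 5084) in library 4. Libraries 1 and 3 were low and libraries 2 and 4 high, with no overlap of the counting intervals. All 10 pericentral list genes were at least 2-fold higher in library 4 than in library 3 (22.2% of genes), and 8 of 10 were in library 2 than in library 1 (43.8% of genes).

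A group of members shared that order. Cyp2a5 was at 14.2, 307, 48.6 and 205 CPM in libraries 1 to 4. Cyp2c38 was at 3.04, 58.7, 7.41 and 62.2 CPM, and Cyp4a14 at 12.0, 57.1, 9.16 and 46.5 CPM. All 3 were higher in libraries 2 and 4 than in libraries 1 and 3. Cyp3a11 was at 81.3, 284, 168 and 277 CPM, and Cyp2c68 at 52.1, 114, 32.0 and 86.6 CPM. Cyp2c39 was at 1.74, 7.29, 0.844 and 10.1 CPM. These too were highest in libraries 2 and 4.

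Another group had the reverse order. Cyp2f2 was at 52.4, 5.85, 75.4 and 3.32 CPM in libraries 1 to 4. Cyp2a12 was at 45.1, 1.88, 33.9 and 2.38 CPM. Cyp4a12a, which hydroxylates arachidonic acid, was at 21.3, 0.0938, 29.2 and 0.838 CPM, with 147, 3, 484 and 25 UMIs. For each of these genes both libraries 1 and 3 lay above both libraries 2 and 4. Cyp4a12b was at 9.40, 0.375, 16.3 and 3.92 CPM, Cyp2u1 at 5.93, 0.313, 5.48 and 0.268 CPM, and Cyp2d40 at 132, 9.26, 46.6 and 11.7 CPM. The same split of libraries held for these 3.

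Other members followed neither order. Cyp2c50 was at 147, 15.8, 50.8 and 67.7 CPM, with library 2 lowest, and Cyp2c54 was at 28.2, 1.97, 8.86 and 11.1 CPM. Cyp2c70 was at 71.4, 187, 250 and 197 CPM, and Cyp1a2 at 36.4, 66.7, 104 and 119 CPM, both with library 1 lowest. Cyp2d9 was at 117, 60.8, 77.9 and 114 CPM. Cyp2c23 differed least between libraries among the 45 members with at least 100 UMIs, at 14.9, 14.3, 14.5 and 18.3 CPM. Cyp3a41a was seen in library 2 at 6.19 CPM and in library 4 at 0.905 CPM, with 0 UMIs in libraries 1 and 3, where 3 UMIs would have been 0.434 and 0.181 CPM.

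**Figure D3:**
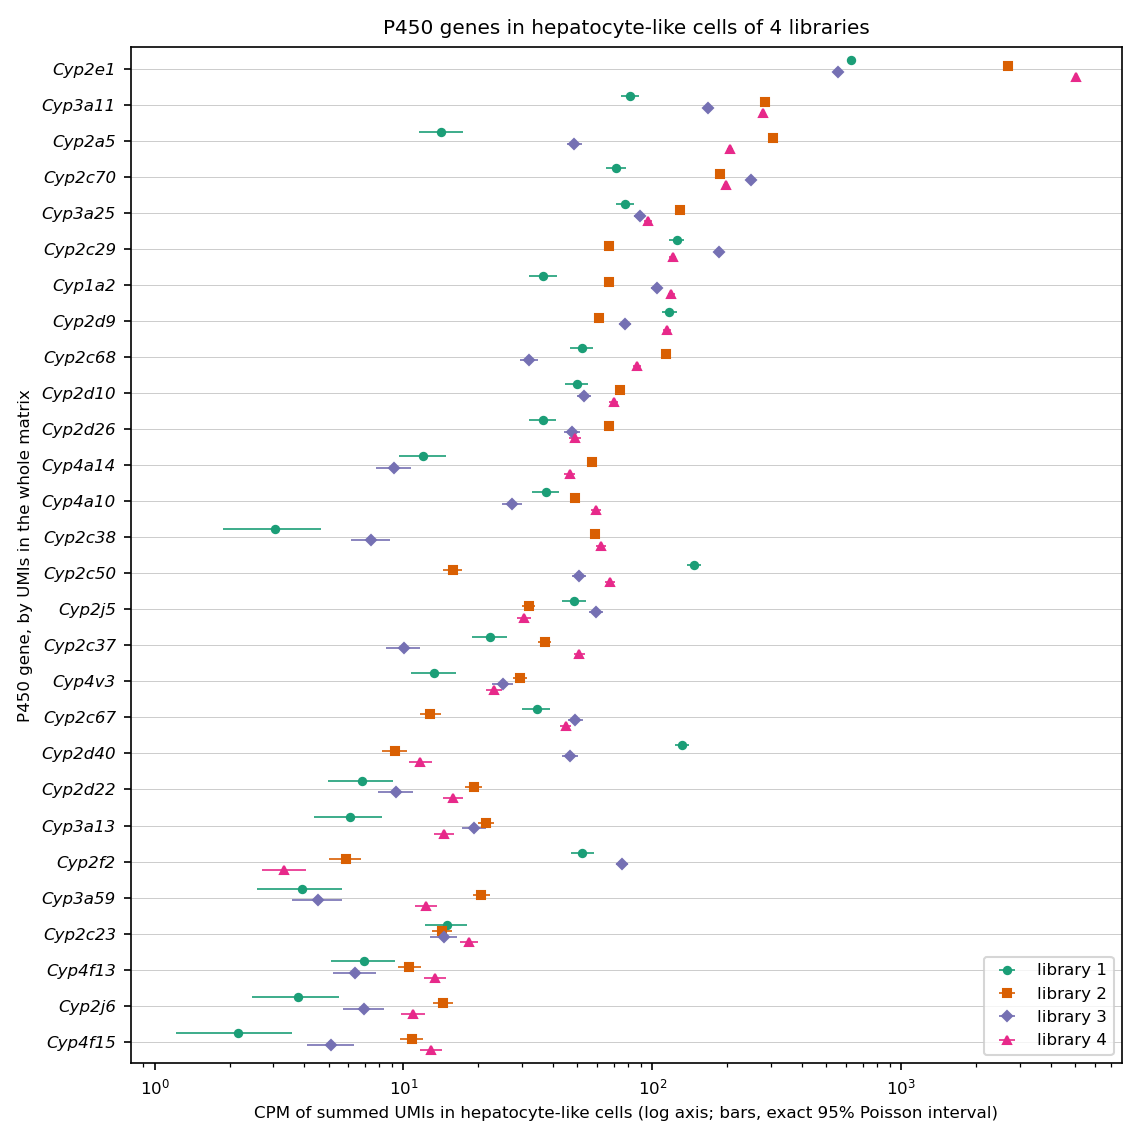
CPM in hepatocyte-like cells of libraries 1 to 4 for 28 members (those of the 30 most abundant with at least 100 UMIs there) (points, log axis, with exact 95% Poisson intervals). For Cyp2e1, Cyp2a5, Cyp2c38 and Cyp4a14 the points of libraries 2 and 4 lie to the right of those of libraries 1 and 3, and for Cyp2f2 and Cyp2d40 they lie to the left.

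Counted as at least 2-fold apart with at least 100 UMIs over both sides, 18 of 39 members were higher in library 2 than in library 1 and 8 lower, against 43.8% and 6.14% of 10065 genes. The median log2 ratio of all genes was 0.81 there, and scaled to that median the counts were 12 higher and 13 lower. Shares of all genes after scaling were not counted for this or the other pairs. Scaled counts are therefore not to be set against the percents given, which are unscaled. Cyp2a5 was 21.6-fold higher (17.7 to 26.7) and Cyp2c38 19.3-fold (12.6 to 31.3), Cyp3a41a was at least 14.3-fold higher, and Cyp2a12 was at a ratio of 0.0416 (0.0310 to 0.0550) and Cyp2d40 at 0.0703 (0.0614 to 0.0802). In library 4 against library 1, 17 of 38 were higher and 7 lower, against 31.3% and 5.25% of 9365 genes (13 and 9 after scaling by the median ratio, whose log2 value was 0.51). Cyp2e1 was 8.02-fold higher (7.79 to 8.27) there.

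In library 3 against library 1, 8 of 36 members were higher and 4 lower, against 9.63% and 2.68% of 7799 genes, the same counts as after scaling. Cyp2c70 was 3.5-fold higher (3.19 to 3.85) and Cyp2d40 was at a ratio of 0.354 (0.321 to 0.390). In library 3 against library 2, 11 of 42 were higher and 15 lower, against 4.75% and 38.9% of 10319 genes, and 16 and 10 after scaling (log2 of the median ratio -0.76). Cyp4a12a was 311-fold higher (106 to 1513), Cyp4a12b 43.4-fold (24.4 to 85.0) and Cyp2a12 18.0-fold (13.8 to 24.0). With clusters present in both libraries weighted equally, 14 members were apart in place of 26.

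The 2 libraries with deep cells were more alike. In library 4 against library 2, 5 of 42 members were higher and 3 lower, against 1.32% and 10.4% of 10585 genes, and 9 and 2 after scaling (log2 of the median ratio -0.26). Cyp4a12b was 10.5-fold higher (5.76 to 20.8), Cyp4f14 7.53-fold (5.92 to 9.69) and Cyp2c50 4.29-fold (3.89 to 4.74). Cyp3a41a, at a ratio of 0.146 (0.0940 to 0.219), and Cyp2a4, another female-predominant gene, at 0.232 (0.131 to 0.390), were lower. In library 4 against library 3, 13 of 39 were higher and 5 lower, against 22.2% and 4.63% of 9758 genes, and 8 and 7 after scaling (log2 of the median ratio 0.47). These 6 contrasts share libraries and are not independent.

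Genes outside the family with a known sex pattern, whose expression growth hormone controls, also differed between these libraries. Of the 7 male-biased liver genes 6 were tested between libraries 2 and 1, and all 6 were lower in library 2, against 6.14% of genes. Elovl3 was at 532, 1.38, 118 and 3.25 CPM in libraries 1 to 4 and Hsd3b5 at 170, 0.407, 48.3 and 0.570 CPM. Sult2a1, a female-biased sulfotransferase, was at 0, 45.7, 1.27 and 17.0 CPM. Of the 9 genes of growth hormone signalling 8 were tested, with 2 higher and 4 lower in library 2 (43.8% and 6.14% of genes): the growth hormone receptor Ghr was at 247, 48.5, 197 and 73.3 CPM and Igf1 at 471, 15.8, 559 and 59.6 CPM. Male-predominant Cyp4a12a, like Elovl3, was higher in both libraries 1 and 3 than in libraries 2 and 4, and female-predominant Cyp3a41a, like Sult2a1, was the other way round. Cyp2d9, also male-biased, did not have this order, with library 4 near library 1 (114 and 117 CPM) and library 2 lowest (60.8 CPM). Female-predominant Cyp2a4 had 0, 83, 1 and 18 UMIs in libraries 1 to 4, at 0, 2.60, 0.0603 and 0.603 CPM. Cyp3a44 had 0, 30, 1 and 5 UMIs and Cyp3a41b 0, 20, 0 and 3. Of 5 sex chromosome genes 4 were tested, with 2 higher and none lower in library 2 than in library 1 (43.8% and 6.14% of genes). Several of the male-biased genes are also on the list of adult hepatocyte state markers, which were kept in the clustering.

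The electron donors and other partners of the P450 enzymes were read beside the members. Por, the obligate electron donor, was at 4.19, 112, 27.3 and 71.8 CPM in libraries 1 to 4, and 225 CPM in the Afp cluster against 14.1 CPM in the Oat cluster of libraries 2 and 4, a ratio of 16 (14.2 to 18). Cyb5a, encoding cytochrome b5, went the other way between those clusters at 1674 and 5327 CPM. Of 7 electron transfer partners 4 were higher and 1 lower in the Afp than in the Oat cluster (29.1% and 7.91% of genes), and 3 were higher and none lower in library 2 than in library 1 (43.8% and 6.14% of genes). None of the 7 differed 2-fold between the ranges of the pericentral score, where only 1.97% and 3.51% of genes did. Of 12 genes of haem synthesis and breakdown none was higher and 7 were lower in the Afp than in the Oat cluster, against the same 29.1% and 7.91%. The first enzyme of the pathway, Alas1, was at 126 and 456 CPM there and changed less between libraries (216, 275, 297 and 357 CPM).

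Receptors and liver transcription factors were counted in the same comparisons. Of 11 receptors and partners none differed 2-fold between the Afp and Oat clusters, where 29.1% of genes were higher and 7.91% lower. None differed 2-fold between the ranges of the score either, but only 1.97% and 3.51% of genes did so there. In library 2, 2 receptors or partners were higher and none lower than in library 1 (43.8% and 6.14% of genes). In library 3 against library 2 none was higher and 3 were lower, against 4.75% and 38.9% of genes. Ahr was at 21.8, 47.6, 21.6 and 54.5 CPM in libraries 1 to 4, and Nr1i3, the constitutive androstane receptor, at 48.2, 77.5, 16.6 and 73.5 CPM. The ratio of Ahr was 2.18 for library 2 over 1 and 2.52 for library 4 over 3, and that of Nr1i3 was 0.214 for library 3 over 2 and 4.43 for library 4 over 3. Of 14 liver transcription factors 13 were tested, with 1 higher (Dbp) and 1 lower (Onecut1) in library 2 than in library 1, and in library 3 against library 2 there was 1 higher and 3 were lower. Dbp, a clock-controlled factor, was also the only 1 of the 13 called between the ranges, at 36.2 and 6.43 CPM. Of 6 genes induced through Ahr outside the family 3 were tested in the same pair of libraries and 1 was higher: Nqo1, at 2.31, 17.5, 3.25 and 19 CPM. Of the 10 Ppara-induced genes 4 were higher and 1 lower there, near the 43.8% and 6.14% of all genes, with Pdk4 at 4.19, 53.6, 15.2 and 56.8 CPM and Fabp1 at 34251, 5686, 22332 and 7529 CPM.

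P450 genes of other families, several of which make bile acids or steroids, were read beside the members. Of 10 such genes 8 were tested, and in the Afp cluster 7 were higher and none lower than in the Oat cluster (29.1% and 7.91% of genes). Cyp7a1, the rate-limiting enzyme of bile acid synthesis, was at 104 and 12.9 CPM there, and at 3.76, 42.1, 10.5 and 50.5 CPM in libraries 1 to 4. In library 2, 6 of the 8 were higher than in library 1 and none was lower (43.8% and 6.14% of genes). Between the ranges of the score only Cyp8b1 of 8 was called (1.97% of genes were higher and 3.51% lower), at 7.88 CPM in the upper and 27.0 CPM in the lower range.

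Outside hepatocytes, a few members stood far above the hepatocyte level. Of 48 members with at least 100 UMIs in the 13 named classes, 35 were highest in hepatocyte-like cells, against 12.6% of 13231 genes. The clearest exception was Cyp4b1, known from lung as the enzyme that activates plant furans. Sinusoidal endothelial-like cells held 1294 of its 1963 UMIs in named classes, at 470 CPM (445 to 496), and hepatocyte-like cells 30, at 0.352 CPM. Its level in sinusoidal endothelial-like cells of libraries 1 to 4 was 523, 309, 339 and 215 CPM. In vascular endothelial-like cells it was at 118 CPM in the sum and 116, 69.0, 166 and 146 CPM in libraries 1 to 4, and the class of stellate cells or fibroblasts had 114 CPM. It was higher in sinusoidal than in vascular endothelial-like cells in each of the 4 libraries, with a pooled ratio of 4.00 (3.59 to 4.46). Both vascular clusters scored highest for sinusoidal markers and were named from their leading genes, which bears on this contrast.

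Cyp4f18, which acts on leukotriene B4, reached 122 CPM in its highest class, neutrophil-like cells, against 67.8 CPM in macrophage-like and 0.176 CPM in hepatocyte-like cells. In neutrophil-like cells of libraries 1 to 4 it was at 361, 76.8, 182 and 71.8 CPM. The neutrophil class joined a cluster led by Retnlg and S100a9, at 234 CPM (203 to 268), and a cluster led by Elane and Mpo, genes of neutrophil precursors, at 47.9 CPM (36.9 to 61.1). An unnamed cluster of 2396 cells led by immunoglobulin genes had 104 CPM. Cyp4f16 was spread over immune classes, at 19 CPM in macrophage-like and 18.7 CPM in Kupffer cell-like cells against 1.39 CPM in hepatocytes. Cyp4v3 reached 34.0 CPM in macrophage-like cells, 26.6 CPM in Kupffer cell-like cells and 25.1 CPM in hepatocytes, and the intervals of the first 2 overlap. Its macrophage-like level was only 1.36 times that of hepatocytes (1.17 to 1.56), and the order held in 2 of 4 libraries. Macrophage-like cells held hepatocyte markers at 29.0% of their hepatocyte level.

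Cholangiocyte-like cells were highest for 7 members, but the class held only 97 cells. Cyp2d22 was at 122 CPM (71 UMIs), 8.09 times the hepatocyte level (6.28 to 10.3), and at 118 and 153 CPM in libraries 1 and 3, which held most of these cells. Cyp2j6 was at 79.2 CPM (46 UMIs), 7.28 times the hepatocyte level (5.30 to 9.80), and Cyp4f14 at 65.4 CPM (38 UMIs), 5.97 times (4.20 to 8.26). Cyp2j5 was at 56.8 CPM (33 UMIs) against a hepatocyte level of 38.1 CPM, a ratio of 1.49 (1.02 to 2.10). In library 1 it was at 53.6 CPM (32.7 to 82.8) against 48.4 CPM in hepatocytes, and in library 3 at 68.0 CPM (35.1 to 119) against 59.3 CPM, so that both intervals hold the hepatocyte level. Cyp4f13 rested on 14 UMIs, Cyp2u1 on 2 and Cyp2c69 on 1. The hepatocyte markers in this class stood at 26.3% of their hepatocyte level while Cyp2e1 stood at 2.99% of its own. Within libraries 1 and 3 the markers stood at 30.7% and 23.7% and Cyp2e1 at 4.25% and 37.7% of the hepatocyte level of the same library. Of the remaining exceptions, Cyp4f17 was highest in vascular endothelial-like cells with 12 UMIs and Cyp4a32 in NK cell-like cells with 7 UMIs, at 5.78 CPM against 5.73 CPM in hepatocyte-like cells.

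The Ahr targets Cyp1a1 and Cyp1b1 held under 100 UMIs and were named after their values were seen. Cyp1b1, which hydroxylates oestradiol, had 36 of its 67 UMIs in named classes in a vascular cluster of 175 cells led by Rspo3 and Vwf, at 103 CPM (71.9 to 142). In vascular endothelial-like cells it was at 44.6, 0, 57.0 and 1.67 CPM in libraries 1 to 4, the cluster having 111, 1, 57 and 6 cells in them. It also had 11 UMIs in the class of stellate cells or fibroblasts and 18 in hepatocyte-like cells, all 18 in library 2. The class of stellate cells or fibroblasts was highest by CPM, at 10.4 CPM against 9.30 CPM in all vascular endothelial-like cells. That ratio was 1.12 (0.516 to 2.26). Cyp1a1 had 39 UMIs in sinusoidal endothelial-like cells, at 14.2 CPM, and 11 in the Rspo3 cluster, at 31.4 CPM (15.7 to 56.1). In hepatocyte-like cells Cyp1a1 had 10 UMIs. Its hepatic relative Cyp1a2 had 7667 there.

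**Figure D4:**
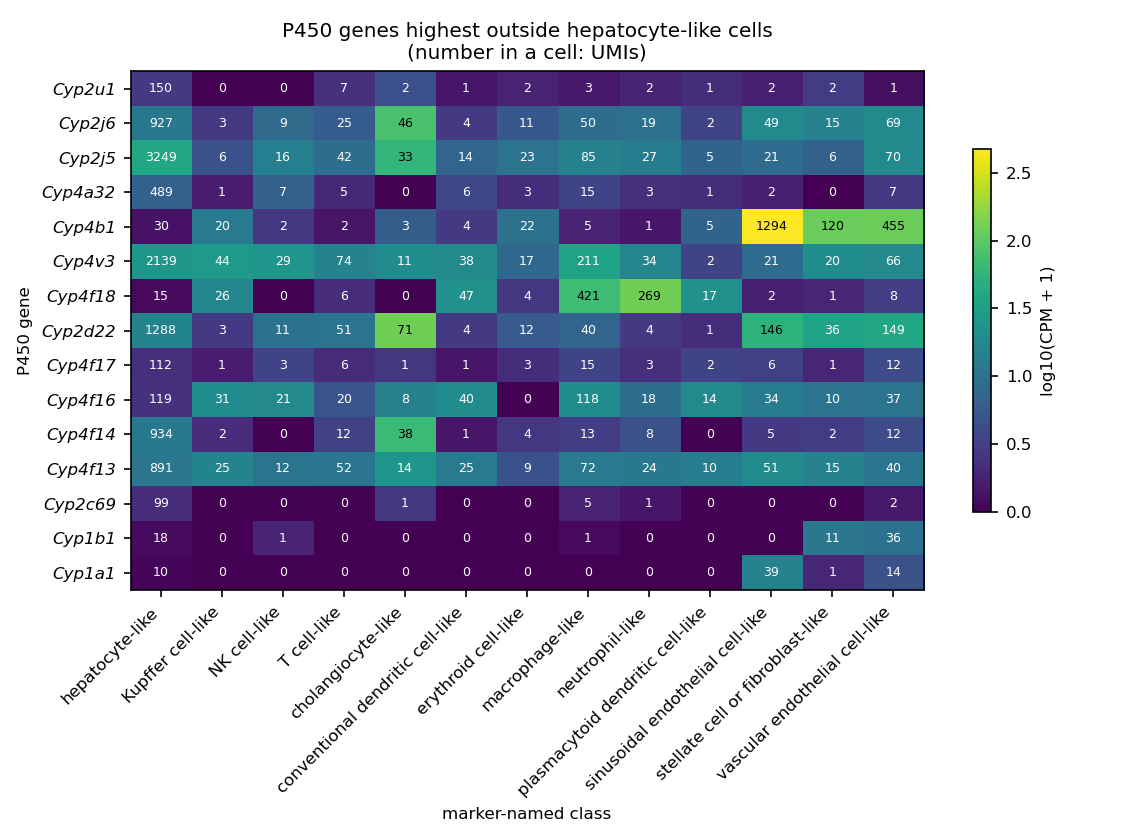
Level of the 13 members with at least 100 UMIs whose highest class was not hepatocyte-like, and of Cyp1b1 and Cyp1a1, in 13 named classes; colour gives log10(CPM + 1) and the number in each cell the UMIs behind it. Cyp4b1 is brightest in sinusoidal endothelial-like cells with 1294 UMIs, Cyp4f18 in neutrophil-like cells with 269, and Cyp2d22 among cholangiocyte-like cells with 71.

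Abundant hepatocyte transcripts were counted in every class, which sets the background for all members. The 10 hepatocyte markers stood at 8.67% (conventional dendritic cell-like) to 31.1% (vascular endothelial-like) of their hepatocyte level. Cyp2e1 stood at 2.99% (cholangiocyte-like) to 39.2% (vascular endothelial-like), and all members summed at 12.6% (Kupffer cell-like) to 44.7% (vascular endothelial-like). These pooled percents mix libraries in which Cyp2e1 differs, and classes hold the libraries in unequal shares. Within libraries 1 to 4 all members summed to 39.1, 53.7, 57.1 and 38.2% of the hepatocyte level in sinusoidal and to 19.9, 52.7, 41.8 and 34.0% in vascular endothelial-like cells. The sinusoidal class was thus higher in each, but this sum includes Cyp4b1, which was higher in that class in each library. In the pool Cyp4b1 gave 470 of 1006 CPM in the sinusoidal and 118 of 2112 CPM in the vascular class. The order of these 2 classes is therefore not read as one of hepatocyte transcripts. Cyp2e1 stood at 5.39, 41.6, 50.8 and 28.8% in the sinusoidal and 3.54, 49.1, 31.2 and 27.3% in the vascular class. In vascular endothelial-like cells Cyp2e1 was at 22.3, 1313, 174 and 1379 CPM in libraries 1 to 4, which is the same order of low and high libraries as in hepatocyte-like cells. Levels of hepatocyte-led members in other classes are therefore not read as expression by those cells. For Cyp4b1 and Cyp4f18 the hepatocyte level was under 1 CPM, so this background does not hold them.

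**Figure D5:**
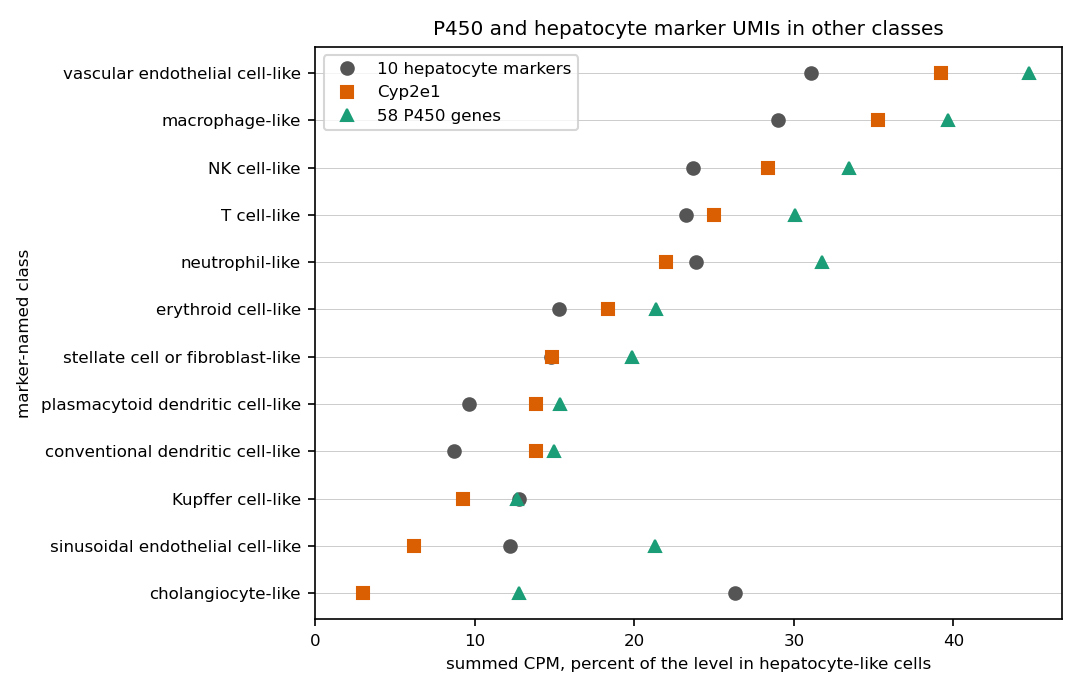
Summed CPM of 10 hepatocyte markers (circles), Cyp2e1 (squares) and all 58 members (triangles) in 12 other classes, as percent of the level in hepatocyte-like cells. The libraries are pooled, so the order of classes depends on which libraries they hold: vascular endothelial-like cells lie at 44.7% for all members and sinusoidal endothelial-like cells at 21.3%, while within each library the sinusoidal class was the higher. All members include Cyp4b1, which was itself higher in the sinusoidal class.

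A cluster of 544 cells led by Gm26917 had hepatocyte markers but stayed unnamed and outside the counts above. Its cells came from libraries 2, 3 and 4 (301, 80 and 163 cells), with a median mitochondrial share of 10.6% and Malat1 and Neat1 at 16897 CPM. Members summed to 13499 CPM there, more than in any named hepatocyte-like cluster. Cyp2e1 was at 5248 CPM (5164 to 5332), Cyp3a11 at 1364 CPM (1322 to 1408), Cyp3a25 at 1076 CPM and Cyp2a5 at 715 CPM. Without Cyp2e1 the members summed to 8251 CPM, against 3009 CPM in the Afp cluster, and Alb was at 10903 CPM against 4511 CPM.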

How the data were processed

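The 4 samples were measured by droplet single-cell RNA sequencing of dissected liver or tumor. The authors deposited 1 matrix of UMI counts over 31053 genes and 38072 barcodes (130199595 UMIs), made with Cell Ranger 6.0.1 per the file headers; build mm9 is named per the submitters' processing notes. Whether doublets had been removed is not given in the sources.

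Cells with at least 200 genes, 500 UMIs and under 20% mitochondrial UMIs were kept (1838 barcodes failed on mitochondrial UMIs, 84 on the others), and 1367 with a Scrublet score above 0.25 were removed. Counts were scaled to 10000 per cell, logged and clustered with scanpy 1.11.5 and igraph 0.11.9 (Python 3.11.15; 2000 variable genes without the members and most function lists, 30 principal components, 15 neighbours, Leiden resolution 1). Clusters were named from fixed marker lists, at least 3 of them detected. UMIs were then summed per group; intervals are exact (scipy 1.17.1), at 95%. The ratio code was checked on simulated counts.

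Genes named were the 30 members with most UMIs, per comparison up to 25 members at least 2-fold apart with at least 100 UMIs over both sides, and members with at least 100 UMIs led by another class. Against a count under 3 the ratio uses 3 UMIs, and a call needs at least 3 UMIs on the higher side. Members and lists were chosen with earlier results of these data known. The pairs of clusters within libraries were chosen after seeing the data. Alternatives covered resolution, filters, doublets, thinning to 1000 UMIs, the UMI minimum, weighting, scaling by the median ratio and leaving out each library. Some results are not reported here.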

Additional observations from a re-analysis of the deposited data

Results flagged for a closer look

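Barcodes removed for their mitochondrial UMIs alone (they held at least 500 UMIs and 200 genes) entered no comparison, and P450 transcripts were counted in them above the level of 3 UMIs. As CPM of the UMIs that were not mitochondrial, all members summed to 5443 CPM in the 12 such barcodes of library 1, 11786 CPM in 876 of library 2, 4012 CPM in 102 of library 3 and 15261 CPM in 716 of library 4. The same sum in hepatocyte-like cells was 1998, 4605, 2221 and 7088 CPM, and 3 UMIs would have been 292, 2.28, 24.2 and 2.93 CPM. The sum was thus higher in the removed barcodes of each of the 4 libraries, and library 4 was highest in both. That of library 1 rests on 56 UMIs. Hepatocyte markers in the removed barcodes summed to 54233, 38444, 16523 and 38460 CPM on the same basis. In hepatocyte-like cells they summed to 16384, 22259, 32503 and 18859 CPM of all UMIs. Markers too were thus higher in the removed barcodes of libraries 1, 2 and 4, but lower in library 3.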

How the results depend on the processing

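No paired analysis was possible because no suffix is mapped to a sample and each group has 1 sample. Counts of members at least 2-fold apart stayed within 1.5 times of the main count in 222 recomputed values and moved further in 27, and the cause of the others was not tested beyond what each setting removes. Shares of all genes were not counted under the alternative settings, so the counts below are for members alone. With cells thinned to 1000 UMIs, which leaves fewer members with 100 UMIs, the pericentral range had 10 higher and 2 lower (main 17 and 4). Thinning also gave 14 for the Saa1, 7 for the Lars2 and 17 for the Oat cluster against other hepatocytes (main 23, 14 and 28). For cluster pairs it gave 9 for Hsd17b6 over Oat, 5 for Mup15 over Serpina1e and 8 for Saa1 over Sds (main 15, 11 and 17). For libraries it gave 7 for 3 over 1, 14 for 4 over 1 and 3 for 4 over 2 (main 12, 24 and 8). With no minimum of UMIs the counts were 23 for Hsd17b6 over Oat, 20 for Mup15 over Serpina1e, and 19 and 14 for libraries 3 over 1 and 4 over 2. With libraries weighted equally they were 18 for Serpina1e (main 30) and 15 for Mup15 (main 25). Where cells were clustered anew, each main cluster was matched to the new cluster that overlapped it most. The cells compared can therefore differ from the main ones, and main clusters can share a match. Resolution 0.5 gave 28 for Lhpp and 11 for Saa1 over Sds, and resolution 2.0 gave 23 for Hsd17b6 over Oat. Keeping members in the clustering gave 30 for Hsd17b6 (main 11), and weighting clusters equally gave 14 for library 3 over 2 (main 26). Leaving out each library gave 16 to 19 higher and 2 to 3 lower for the pericentral range (2 without library 3), 11 to 30 for Serpina1e and 16 to 26 for Mup15 (11 and 16 without library 1), 7 to 13 for Lars2 and 7 to 12 for Hsd17b6 (both 7 without library 2), and 31 to 35 members led by hepatocytes; the Saa1 and Sds clusters gave no value without library 3. Among single members 4 log2 ratios turned: Cyp2f2 in Afp over Oat to 0.0072 with thinning (main -1.06), Cyp2a5 in Hsd17b6 over Oat to -0.12 with members kept in the clustering (main 1.29), Cyp2c54 in the same pair to 0.34 with the stricter filter (main -1.44), and Cyp4a31 in library 3 over 2 to 0.49 with clusters weighted equally (main -1.14). Of the other levels and ratios of single members, 1764 stayed within their counting interval or spread and 750 moved beyond it, and of the counts split by direction 349 stayed within 1.5 times and 84 did not. Some of these values could not change. The UMI minimum enters no level or ratio, so 200 ratios and 30 levels stayed the same under that setting by construction. Leaving out a library that a cluster pair does not hold also returns the same value. These tallies, the 222 above included, therefore overstate stability. Depth limits the members under 100 UMIs and the shallow libraries 1 and 3, where fewer members could be compared.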
